A study of Mus musculus with 12 samples.

Results

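The genes described here are 10 keratins, Krt5, Krt7, Krt8, Krt14, Krt17, Krt18, Krt19, Krt20, Krt23 and Krt80, taken by symbol from a mouse kidney RNA sequencing table of 32047 genes. All 10 were found, each on 1 row, among 37 genes of the table with a keratin symbol. The 12 libraries fall into 3 groups of 4. NC is an abbreviation that the labels do not expand. AKI_A_mcherry, called the mCherry group here, is named for acute kidney injury and for mCherry, a red fluorescent protein. AKI_A_FGF23_R176QR179Q, called the FGF23 group here, is named for the same injury and for a doubly substituted form of FGF23, a bone hormone that acts on the kidney. Per the series' design text, this form was overexpressed and rhabdomyolysis, in which muscle breaks down and harms the kidney, was induced 3 weeks afterwards. The labels give no strain, age, sex, vector, promoter or day of collection. Nor do they state that each library is a different animal, and p-values therefore reflect library-to-library spread that may be technical. No group holds the FGF23 form or mCherry without injury, so the 3 comparisons cannot tell its action on a healthy kidney apart from its action during injury.

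Keratins are the intermediate filament proteins of epithelial cells. A filament needs a type I and a type II keratin, which pair with each other. Krt8 (type II) and Krt18 (type I) form the pair of simple epithelia such as kidney tubules, Krt7 and Krt19 are typical of ducts and urothelium, Krt5 (type II) and Krt14 (type I) form the pair of basal cells in stratified epithelia, and Krt20 marks umbrella cells of the urothelium and is also known from injured proximal tubules. Of the members, 6 are type I (Krt14, Krt17, Krt18, Krt19, Krt20, Krt23) and 4 are type II (Krt5, Krt7, Krt8, Krt80). Because the renal pelvis is lined by urothelium, a kidney sample can carry urothelial cells in amounts that vary from sample to sample. In whole tissue, a change in the number of cells of a type and a change in RNA per cell cannot be told apart.

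Library totals ran from 55324078 to 70638283 counts. Values per library are CPM, counts relative to the library total after scaling by TMM factors, which correct for differences in RNA composition. Nephron genes were abundant in all groups. Lrp2, the proximal tubule endocytic receptor, averaged 1762 CPM in NC, 183 in the mCherry group and 509.7 in the FGF23 group, and Umod, made by the thick ascending limb, averaged 5003, 3063 and 5362 CPM. Havcr1, the tubule injury marker known as Kim-1, averaged 3.23 CPM in NC, 2813 in the mCherry group and 1061 in the FGF23 group.

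Most of the keratin genes had more mRNA in the mCherry group than in NC and less in the FGF23 group than in the mCherry group. In the mCherry group against NC, 9 of the 10 members were higher and 0 lower at an adjusted p under 0.05, where 27.2% of the 18724 genes tested were called higher and 26.0% lower. In the FGF23 group against the mCherry group the same 9 members were lower and 0 higher, where 11.4% of 18824 genes were called lower and 11.7% higher. Krt80 was the member called in neither. In the FGF23 group against NC, 3 of the 9 members tested were higher (Krt8, Krt20 and Krt23) and 0 lower, where 21.7% of 19005 genes were called higher and 20.6% lower. Krt17 had too few counts to be tested there, so it entered the other comparisons only through the mCherry libraries. Krt14 and Krt20 were at 0 counts in NC library 3, so they passed the filter against NC only with the libraries of an injured group. The comparisons share libraries, so their counts are not independent of each other. The members and the gene lists used below were chosen with earlier results of these data known. Their counts are therefore no independent test against the shares over all genes. The median log2 fold change of the members was 2.99, -1.99 and 0.40 in the 3 comparisons, against -0.003, 0.008 and 0.011 over all genes tested. All 4 mCherry libraries exceeded all 4 NC libraries in 9 members, where 26.0% of genes tested did so, and all 4 FGF23 libraries lay below all 4 mCherry libraries in the same 9, where 13.0% did so.

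**Figure D1:**
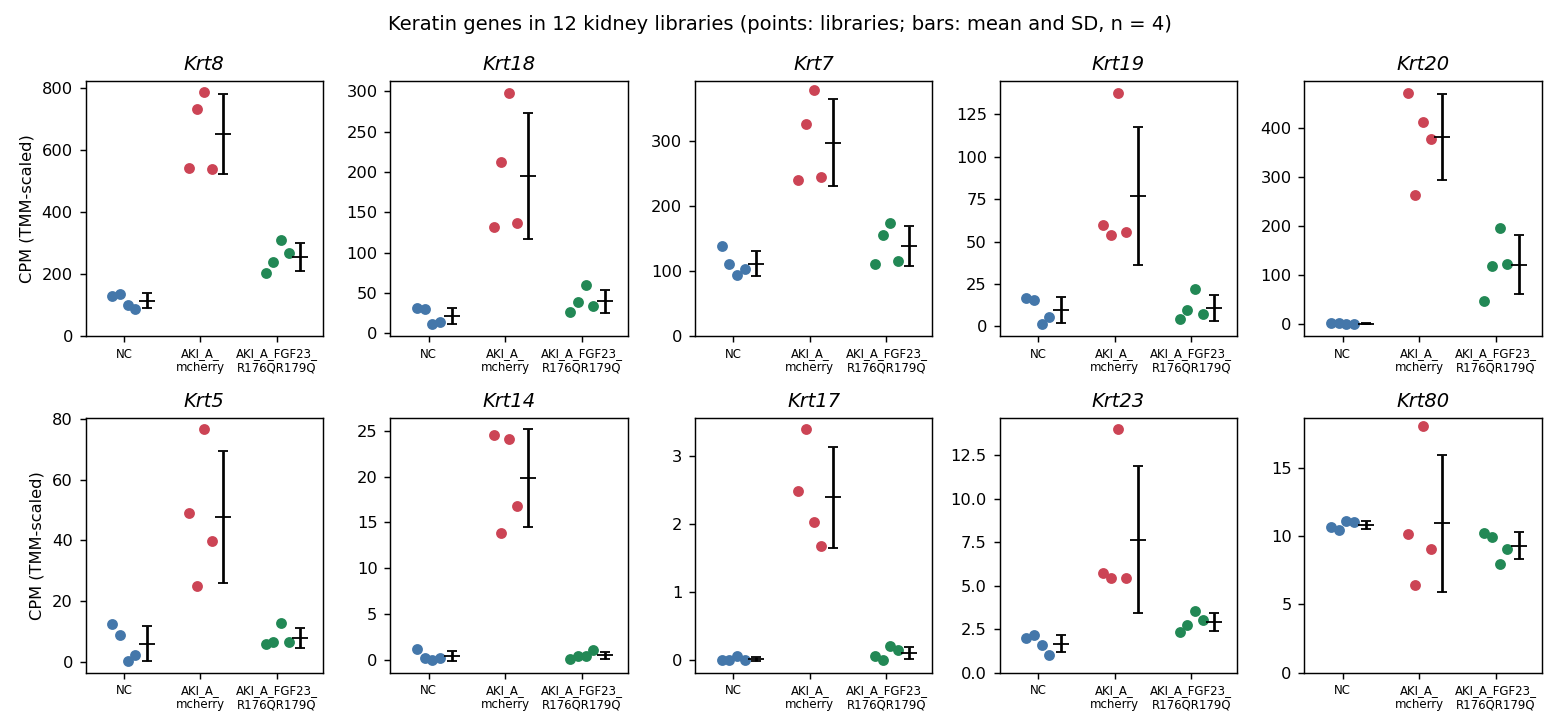
Expression of each keratin gene in CPM (vertical axis, 1 scale per gene) in NC, AKI_A_mcherry and AKI_A_FGF23_R176QR179Q (horizontal axis). Points are libraries and bars are the mean and SD of 4 libraries. The mCherry libraries stand above the other groups in every panel except Krt80.

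**Figure D2:**
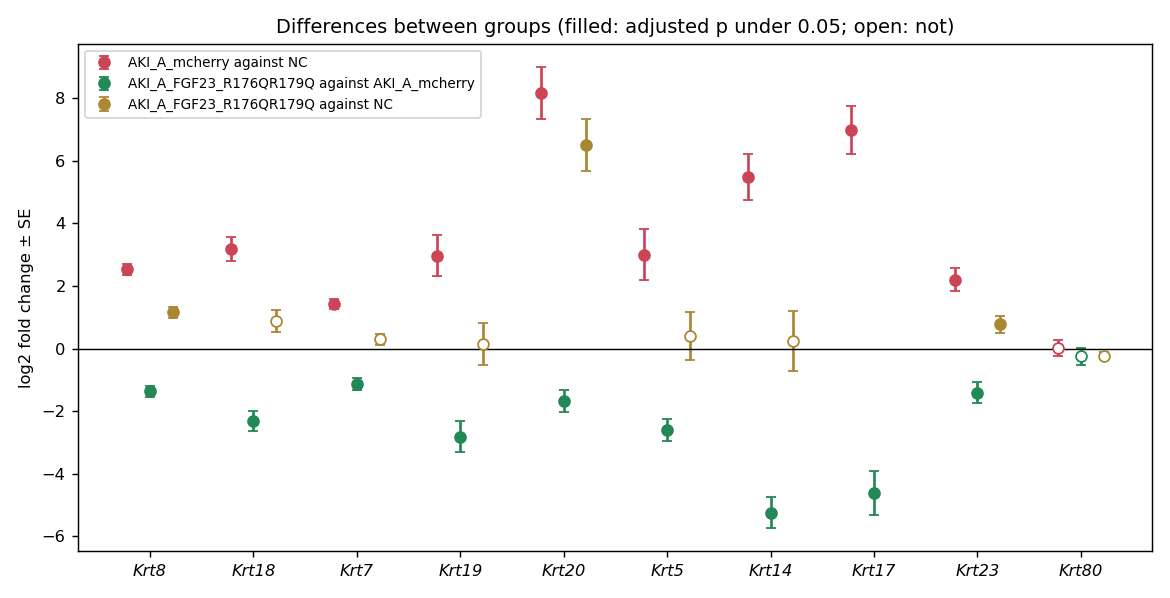
Log2 fold change with its SE (vertical axis) for each keratin gene (horizontal axis) in the 3 comparisons. Filled points passed an adjusted p of 0.05 and open points did not; Krt20 keeps a large difference from NC in the FGF23 group (6.5), while Krt14 (0.24) and Krt19 (0.15) have open points there.

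Krt8, the type II keratin of simple epithelia, was the member with the highest level per gene length in every group. Its CPM in libraries 1 to 4 was 130.4, 136, 100.2 and 86.0 in NC, and 544, 735, 789 and 539 in the mCherry group. In libraries 1, 2, 3 and 5 of the FGF23 group it was 203, 240.2, 309.8 and 269.6. The 3 groups did not overlap, with the FGF23 group between the others. Krt8 was 5.77-fold higher in the mCherry group than in NC (log2 fold change 2.53 ± 0.19 SE, adjusted p 2.16e-06), 2.58-fold lower in the FGF23 group than in the mCherry group (-1.37 ± 0.17, adjusted p 0.000989), and 2.23-fold higher in the FGF23 group than in NC (1.16 ± 0.17, adjusted p 0.00035).

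Krt18, the type I partner of Krt8, varied more between libraries. NC libraries held 31.0, 29.9, 11.6 and 13.4 CPM, mCherry libraries 131.5, 212, 298 and 137 CPM, and FGF23 libraries 26.2, 39.0, 59.7 and 33.6 CPM. The mCherry libraries stood apart from both other groups, and the FGF23 libraries overlapped NC through library 1. Krt18 was 9.08-fold higher in the mCherry group than in NC (log2 3.18 ± 0.39 SE, adjusted p 6.23e-05) and 4.96-fold lower in the FGF23 group than in the mCherry group (-2.31 ± 0.32, adjusted p 0.00149). Between the FGF23 group and NC the difference of 0.87 ± 0.35 missed the threshold (adjusted p 0.0702) and passed it when libraries were scaled by their totals alone (1.20, adjusted p 0.0157), without FGF23 library 1 (adjusted p 0.0446) and without NC library 1 (adjusted p 0.0391).

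Krt8 and Krt18 are neighbours in the genome: 5 members lie on chromosome 15 and 5 on chromosome 11, Krt18 is the only type I member on chromosome 15, and no protein-coding gene of the RefSeq table lies between Krt8 and Krt18 (0 genes). Their upstream sequences are given because they are a pair and both were called in the first 2 comparisons, and that of Krt20 because it had the largest difference from NC of the 10 in both injured groups. Each is the 250 bases before the gene's start in RefSeq on build GRCm38.p6, 5′ to 3′ on the gene's strand. The letters TATAAA, the core of a TATA box, are in capitals where a search of both strands found them. The coordinates are chr15:102004343-102004592 on the minus strand for Krt8, chr15:102027966-102028215 on the plus strand for Krt18 and chr11:99438154-99438403 on the minus strand for Krt20.
Krt8: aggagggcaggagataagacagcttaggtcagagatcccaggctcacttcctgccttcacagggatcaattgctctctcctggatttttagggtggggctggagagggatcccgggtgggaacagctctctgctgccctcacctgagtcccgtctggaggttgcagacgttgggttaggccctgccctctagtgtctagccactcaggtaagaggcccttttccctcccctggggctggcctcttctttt
Krt18: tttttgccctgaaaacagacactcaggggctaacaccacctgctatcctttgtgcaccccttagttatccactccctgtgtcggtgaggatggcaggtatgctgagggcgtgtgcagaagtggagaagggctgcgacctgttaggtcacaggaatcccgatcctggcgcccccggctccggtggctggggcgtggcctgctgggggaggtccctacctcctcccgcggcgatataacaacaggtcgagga
Krt20: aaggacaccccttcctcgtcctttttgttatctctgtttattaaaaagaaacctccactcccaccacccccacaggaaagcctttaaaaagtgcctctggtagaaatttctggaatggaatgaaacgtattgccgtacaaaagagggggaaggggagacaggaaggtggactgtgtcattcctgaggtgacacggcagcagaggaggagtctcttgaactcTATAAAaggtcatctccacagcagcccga
TATAAA was present in 1 of the 7 members with an entry in the promoter table, Krt20, where it began 29 bases before the start. It was present in 12.4% of all 32851 windows of this length. The AP-1 letters TGANTCA, a motif of Fos and Jun factors, were found in 0 of the 7 members and in 6.75% of all windows. Krt17, Krt19 and Krt80 are named only.

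Krt7, the type II keratin of collecting duct and urothelium, had the smallest differences among the 9 members called in the first 2 comparisons. NC libraries held 138, 110.0, 93.5 and 103.1 CPM, mCherry libraries 239.8, 327, 378 and 245 CPM, and FGF23 libraries 110.2, 155, 174 and 115 CPM. FGF23 libraries 1 and 5 lay within the NC range and libraries 2 and 3 above it. Krt7 was 2.68-fold higher in the mCherry group than in NC (log2 1.42 ± 0.17 SE, adjusted p 6.22e-05) and 2.17-fold lower in the FGF23 group than in the mCherry group (-1.12 ± 0.19, adjusted p 0.00425). Against NC the FGF23 group differed by 0.30 ± 0.17 (adjusted p 0.176), and by 0.63 (adjusted p 0.00824) when library totals alone set the scale.

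Krt19, a type I keratin of ducts and of the urothelium, differed widely within NC. NC libraries held 16.9, 15.3, 1.25 and 5.74 CPM, mCherry libraries 59.8, 53.8, 138 and 55.4 CPM, and FGF23 libraries 4.6, 9.69, 21.97 and 7.56 CPM. NC library 3 was the lowest of the 12, and library 3 was the highest in both injured groups. Krt19 was 7.85-fold higher in the mCherry group than in NC (log2 2.97 ± 0.65 SE, adjusted p 0.00293) and 7.08-fold lower in the FGF23 group than in the mCherry group (-2.82 ± 0.49, adjusted p 0.00419), or -3.42 without FGF23 library 3. The FGF23 group and NC overlapped (0.15 ± 0.67, adjusted p 0.882), and this difference turned negative when NC library 3 (-0.22), NC library 4 (-0.04) or FGF23 library 3 (-0.44) was left out.

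Krt20 went from near absence in NC to the second place per gene length in both injured groups. NC libraries held 2.11, 2.78, 0 and 0.494 CPM, mCherry libraries 473, 263, 414 and 378 CPM, and FGF23 libraries 48.4, 118, 196 and 122 CPM. The 3 groups did not overlap, and the FGF23 libraries spread from the lowest, library 1, to the highest, library 3, over a wider relative range than the mCherry libraries. The fitted difference between the mCherry group and NC was 287-fold (log2 8.17 ± 0.83 SE, adjusted p 1.7e-05) and that between the FGF23 group and NC was 90.3-fold (6.5 ± 0.83, adjusted p 0.000132). Without NC library 2 these were 8.82 and 7.15. Krt20 was 3.18-fold lower in the FGF23 group than in the mCherry group (-1.67 ± 0.35, adjusted p 0.00958). That call was lost in 2 of 18 alternative analyses (adjusted p up to 0.0559, when all 12 libraries shared 1 fit).

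Krt23, a type I keratin found in several epithelia, was low throughout. NC libraries held 1.98, 2.14, 1.57 and 0.989 CPM, mCherry libraries 5.75, 5.42, 14.0 and 5.43 CPM, and FGF23 libraries 2.31, 2.76, 3.54 and 3.01 CPM. All groups were apart, and mCherry library 3 stood well above the other 3 of its group. Krt23 was 4.58-fold higher in the mCherry group than in NC (log2 2.20 ± 0.37 SE, adjusted p 0.000604) and 2.67-fold lower in the FGF23 group than in the mCherry group (-1.41 ± 0.33, adjusted p 0.0145). Its 1.72-fold excess in the FGF23 group over NC (0.78 ± 0.27, adjusted p 0.0371) kept its call in 7 of 17 alternative analyses, whose adjusted p reached 0.233. The call was lost without FGF23 library 2, 3 or 5 or NC library 3 or 4 (adjusted p 0.0623 to 0.101).

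Krt5, the type II keratin of the basal pair, varied widely within NC. It was at 12.5, 8.90, 0.243 and 2.17 CPM in NC, at 48.9, 24.9, 76.6 and 39.8 CPM in the mCherry group, and at 5.73, 6.58, 12.9 and 6.56 CPM in the FGF23 group. NC library 3 held almost no Krt5, and the FGF23 libraries fell inside or just above the NC range. Krt5 was 8.02-fold higher in the mCherry group than in NC (log2 3.00 ± 0.81 SE, adjusted p 0.00935) and 6.06-fold lower in the FGF23 group than in the mCherry group (-2.60 ± 0.36, adjusted p 0.00161), and the first difference was 3.66 without NC library 1. The FGF23 group and NC differed by 0.40 ± 0.78 (adjusted p 0.716), a difference of 0.00 without NC library 3.

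Krt14, the type I partner of Krt5 in basal cells, was at 1.20, 0.311, 0 and 0.287 CPM in NC, at 24.5, 13.9, 24.1 and 16.8 CPM in the mCherry group, and at 0.141, 0.469, 0.439 and 1.09 CPM in the FGF23 group. The FGF23 libraries covered nearly the same range as NC, and every mCherry library was more than 10 CPM above both. Krt14 was 44.9-fold higher in the mCherry group than in NC (log2 5.49 ± 0.73 SE, adjusted p 0.000113) and 37.8-fold lower in the FGF23 group than in the mCherry group (-5.24 ± 0.49, adjusted p 0.000318). The first difference was 6.63 without NC library 1, and the second -5.84 without FGF23 library 5. The FGF23 group and NC differed by 0.24 ± 0.95 (adjusted p 0.865), and the sign of this difference changed without NC library 3 (-0.18) or FGF23 library 5 (-0.37).

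Krt17, a type I keratin induced in wounded skin, was listed at 0, 0, 0.0647 and 0 CPM in NC, at 2.48, 3.39, 2.03 and 1.67 CPM in the mCherry group, and at 0.0514, 0, 0.198 and 0.143 CPM in the FGF23 group. The mCherry libraries held 112 to 169 counts each, against 4 counts over the whole of NC and at most 14 in an FGF23 library. Krt17 was higher in the mCherry group than in NC (log2 6.99 ± 0.78 SE, adjusted p 3.19e-05), a value that rests on those 4 counts and was 10.15 without the NC library that held them, and 24.5-fold lower in the FGF23 group than in the mCherry group (-4.62 ± 0.70, adjusted p 0.00225), or -5.21 without FGF23 library 3.

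Parts of Krt14 and Krt17 are shared with Krt16 and with each other, so the split of reads between them depends on the counting. In the GENCODE M21 transcripts, 14.4% of the 50-base windows of Krt14 occurred also in Krt16 or Krt17, and 0% of its 150-base windows, the length of a read, occurred in another gene. The longest runs identical between these genes are given because they mark where reads could be shared. Both lie in the coding part of Krt14, which spans positions 94 to 1548 of its 1698-base transcript. Capitals mark the identical run, 134 bases from position 399 with Krt16 and 71 bases from position 1309 with Krt17.
Krt14 with Krt16: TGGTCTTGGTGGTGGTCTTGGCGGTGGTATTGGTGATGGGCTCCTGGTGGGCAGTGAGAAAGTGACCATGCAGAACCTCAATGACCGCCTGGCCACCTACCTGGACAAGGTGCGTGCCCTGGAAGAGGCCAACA
Krt14 with Krt17: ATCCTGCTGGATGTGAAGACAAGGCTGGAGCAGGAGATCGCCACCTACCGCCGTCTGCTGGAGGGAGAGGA
Krt8 shared 26.9% of its 50-base windows and 8.51% of its 150-base windows with the pseudogene Krt8-ps, which was listed at 22 to 123 counts per library against 5390 to 50148 for Krt8. Krt5 shared 8.52% of 50-base windows with Krt6a, Krt6b and 2 predicted genes, Krt17 3.99% and Krt18 0.72%. Krt7, Krt19, Krt20, Krt23 and Krt80 shared 0% at either length.

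Krt80, a type II keratin, did not pass the test in any comparison. NC libraries held 10.7, 10.5, 11.1 and 11.04 CPM, mCherry libraries 10.2, 6.42, 18.0 and 9.04 CPM, and FGF23 libraries 10.2, 9.95, 7.98 and 9.07 CPM. Library 3 of the mCherry group was the highest of all 12. The log2 differences were 0.02 ± 0.26 SE for the mCherry group against NC (adjusted p 0.966), -0.25 ± 0.27 for the FGF23 group against the mCherry group (adjusted p 0.539) and -0.23 ± 0.11 for the FGF23 group against NC (adjusted p 0.118). Without mCherry library 3 the first was -0.33 and the second 0.11. All FGF23 libraries lay just below all NC libraries, as was so for 19.6% of genes tested.

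Outside the 10 members, 27 keratin genes were in the table. Of these, 12 had at most 10 counts in every library and 5 reached a mean of 1 CPM in a group. Krt15, a type I basal keratin, was 5.54-fold higher in the mCherry group than in NC (log2 2.47 ± 0.61 SE, adjusted p 0.00568) and 6.06-fold lower in the FGF23 group than in the mCherry group (-2.60 ± 0.37, adjusted p 0.00162). Krt4, a type II keratin of stratified mucosa, was at 1.24 to 3.63 CPM in the mCherry libraries and at most 0.269 CPM in any other library. It passed the filter on low counts only through the mCherry libraries, so its calls rest on the group in which it is high. The log2 differences were 6.91 ± 0.83 SE for mCherry against NC (adjusted p 5.66e-05) and -4.08 ± 0.61 for FGF23 against mCherry (adjusted p 0.00208). Krt16, a type I keratin of wounded epidermis, was at 1.38 to 1.65 CPM in the mCherry group, at most 0.0992 CPM in the FGF23 group and listed at 0 in every NC library, which puts the mCherry mean 29.6-fold above a nominal floor of 3 counts per NC library. Krt76, a type II keratin of the palate, was also listed at 0 in NC, and its means in the mCherry and FGF23 groups were 36.3-fold and 14.7-fold above that floor. Krt10, the type I keratin of suprabasal epidermis, went the other way: it was 1.57-fold lower in the mCherry group than in NC (-0.65 ± 0.25, adjusted p 0.0472) and 1.84-fold lower in the FGF23 group than in NC (-0.88 ± 0.25, adjusted p 0.0151).

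Levels can be compared between genes only per gene length, for which the authors' deposited FPKM values were used, without a test. The 10 keratins summed to 83.6 ± 24.8 FPKM (SD, n = 4) in NC, 717 ± 160.5 in the mCherry group and 262 ± 75.4 in the FGF23 group. In NC the order was Krt8 (48.2 ± 10.9 FPKM), then Krt7 (13.1 ± 2.26) and Krt18 (12.5 ± 6.15), whose libraries overlapped, then Krt19 (4.41 ± 3.41), Krt5 (2.26 ± 2.18) and Krt80 (1.4 ± 0.034). Each of Krt18, Krt19 and Krt5 overlapped the next, while Krt80 lay above all Krt23 values. Krt23, Krt20, Krt14 and Krt17 followed at 0.89 FPKM or less. In the mCherry group Krt8 (300.2 ± 58.4 FPKM) led Krt20 (181 ± 48.9) and Krt18 (122 ± 51.4), the latter pair overlapping. Next came Krt7 (38.1 ± 8.82), Krt19 (37.8 ± 21.5), Krt5 (19.9 ± 9.81) and Krt14 (10.3 ± 3.14), each overlapping its neighbour. In the FGF23 group the order was Krt8 (135 ± 24.2 FPKM), Krt20 (65.0 ± 32.5), Krt18 (28.5 ± 10.4) and Krt7 (20.3 ± 4.49). Krt20 overlapped Krt18 and Krt18 overlapped Krt7, while Krt8 and Krt7 each stood apart from the next. Krt14 stood at 0.310 ± 0.236 FPKM there.

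**Figure D3:**
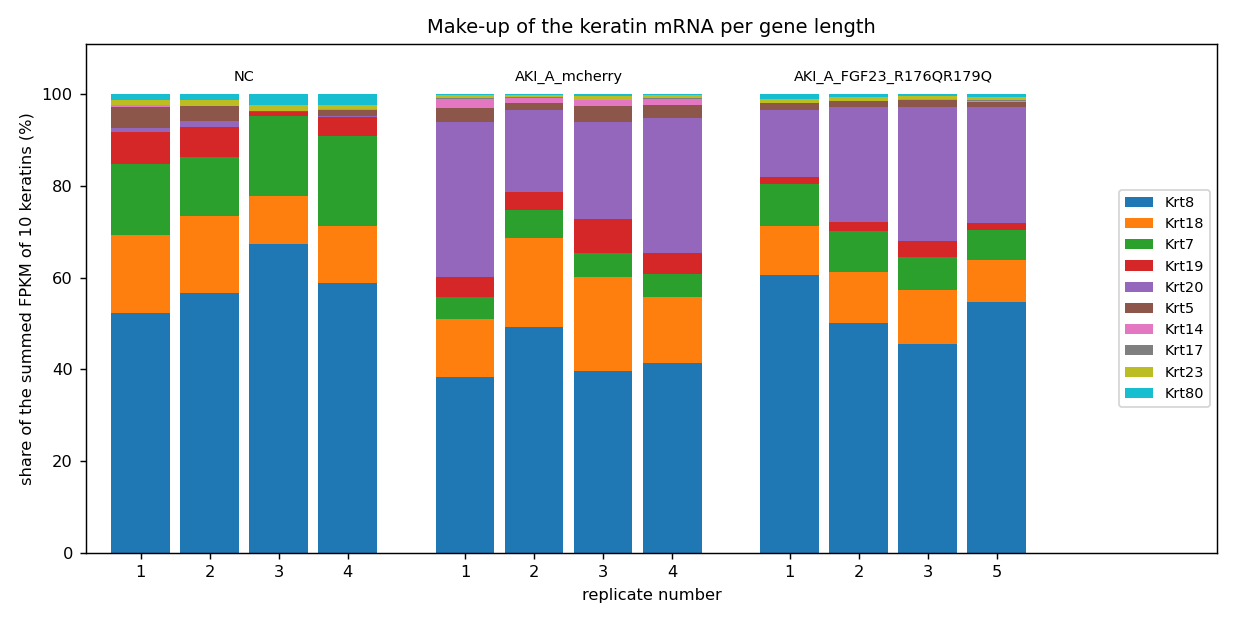
Share of each keratin in the summed FPKM of the 10 genes (vertical axis, percent) for each library (horizontal axis, replicate number within each group). Krt20 makes up 17.9% to 33.9% of the sum in the mCherry libraries and at most 1.17% in NC.

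The make-up of the keratin pool differed between groups as well as its size. Krt8 and Krt18 together made up 73.0% ± 3.70 (SD, n = 4) of the summed FPKM in NC, 58.9% ± 7.55 in the mCherry group and 63.5% ± 5.87 in the FGF23 group. Krt20 made up 0.594% ± 0.522 in NC, 25.6% ± 7.36 in the mCherry group and 23.6% ± 6.22 in the FGF23 group. Its share overlapped between the injured groups, while their summed levels did not. Krt7 made up 16.3% ± 2.93 in NC, 5.32% ± 0.576 in the mCherry group and 7.93% ± 1.34 in the FGF23 group. Type I keratins summed to 0.147 to 0.360 of the type II sum in the NC libraries, 0.752 to 1.16 in the mCherry libraries and 0.384 to 0.831 in the FGF23 libraries. NC was below both injured groups in every library, and the injured groups overlapped.

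Ratios of 2 keratins within a library need no scaling between libraries, and 5 of them were compared in the 3 comparisons. Of these 15 exact two-sided permutation tests, 8 reached 0.0286, the smallest p that 4 against 4 libraries allow, and 0 passed after Benjamini-Hochberg adjustment over the 15 (adjusted p 0.0536). The log2 ratio of Krt18 to Krt8 was -2.07, -2.19, -3.11 and -2.67 in NC, -2.05, -1.79, -1.4 and -1.98 in the mCherry group, and -2.95, -2.62, -2.37 and -3.00 in the FGF23 group. Krt18 was scarcer relative to Krt8 in every NC and FGF23 library than in any mCherry library, narrowly so for NC library 1 (exact permutation p 0.0286 for both, adjusted p 0.0536). The FGF23 group and NC differed by -0.23 (exact permutation p 0.429). Krt7 over Krt8 averaged -0.02 ± 0.25 (SD) in NC, -1.14 ± 0.05 in the mCherry group and -0.89 ± 0.25 in the FGF23 group. Both injured groups lay below NC in every library (exact permutation p 0.0286 each), and the FGF23 and mCherry groups overlapped (difference 0.25, exact permutation p 0.143).

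Krt20 over Krt18 separated NC from both injured groups but not these from each other. Its log2 ratio was -7.91 to -3.40 in NC, 0.31 to 1.85 in the mCherry group and 0.88 to 1.86 in the FGF23 group. The difference between the FGF23 and mCherry groups was 0.49 (exact permutation p 0.229). Krt14 over Krt5 separated the mCherry group from the other 2. Its log2 ratio was -4.62 to -2.58 in NC, -1.67 to -0.84 in the mCherry group and -5.00 to -2.55 in the FGF23 group, so both other groups lay below every mCherry library (exact permutation p 0.0286 each). Krt19 over Krt18 had overlapping groups in all comparisons (differences 0.17, -0.64 and -0.47, exact permutation p 0.943, 0.0571 and 0.429).

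**Figure D4:**
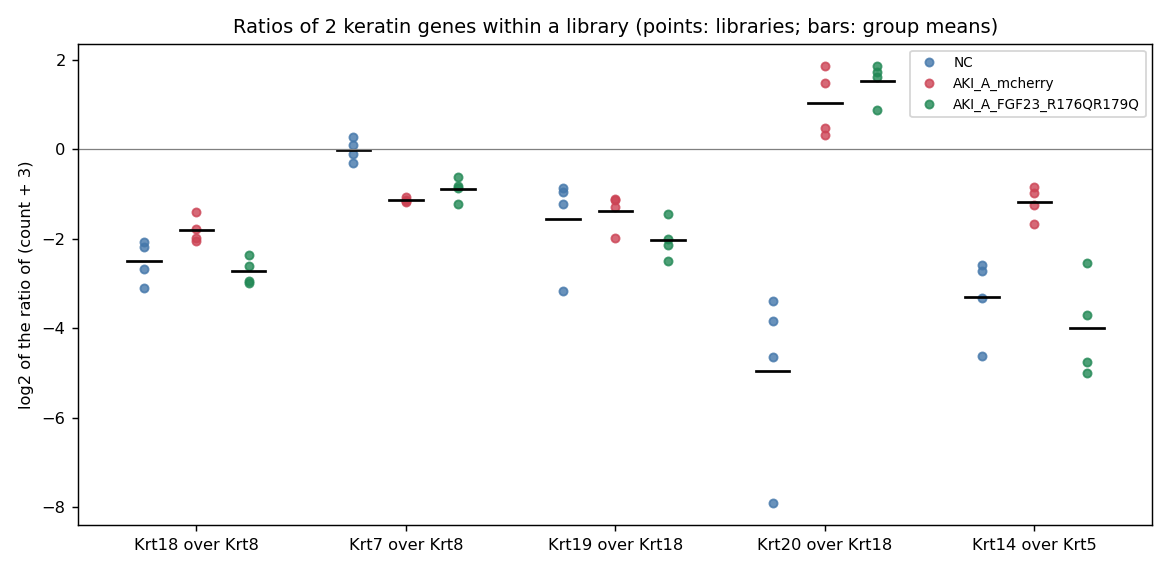
Log2 ratio of (count + 3) of 2 keratins within a library (vertical axis) for 5 pairs (horizontal axis). Points are libraries, coloured by group, and black bars are group means. For Krt14 over Krt5 the mCherry libraries (-1.67 to -0.84) lie above all others, and for Krt20 over Krt18 NC (-7.91 to -3.40) lies below all others.

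Uroplakins, the plaque proteins of umbrella cells, gave a measure of urothelial RNA in each library. The mean log2(CPM + 1) of Upk1a, Upk1b, Upk2 and Upk3a was 3.76, 3.41, 0.89 and 2.36 in NC libraries 1 to 4. It was 2.59, 1.33, 4.47 and 2.00 in the mCherry libraries and 1.12, 1.47, 3.10 and 1.38 in the FGF23 libraries. The groups overlapped throughout: NC library 3 was the lowest of the 12, and library 3 was the highest in each injured group. These are the libraries that were lowest or highest for Krt5 and Krt19 in their groups. Of the 7 urothelial differentiation markers, none was called higher in any comparison (0 of 7 tested) and 1, Snx31, was lower in both injured groups than in NC. Over all genes, 11.7% to 27.2% were called higher and 11.4% to 26.0% lower, depending on the comparison. The median log2 fold change of the 7 was 0.26, -1.45 and -1.32 in the mCherry group against NC, the FGF23 group against the mCherry group and the FGF23 group against NC. Without a call, Upk1b moved by 0.64 ± 0.76 SE, -1.58 ± 0.85 and -0.94 ± 0.78, and Psca by 0.12 ± 0.86, -2.08 ± 0.78 and -1.95 ± 0.83.

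**Figure D5:**
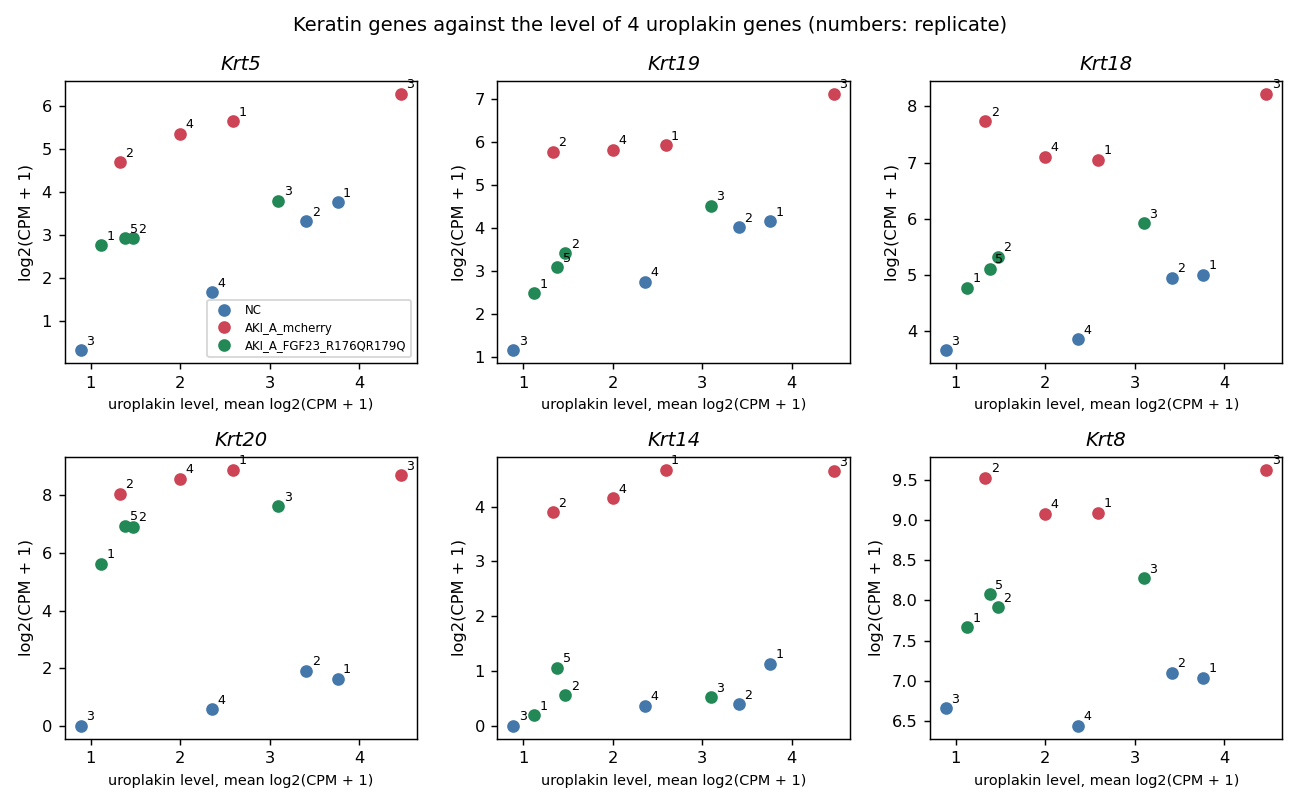
Level of 6 keratins as log2(CPM + 1) (vertical axes) against the uroplakin level of the same library, the mean log2(CPM + 1) of 4 uroplakin genes (horizontal axes). Points are libraries, coloured by group and numbered by replicate. Uroplakin levels overlap between the 3 groups from 1.33 to 3.10, and the mCherry libraries lie above the others in each panel.

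With the uroplakin level as a covariate, the same counts of 9 members higher (mCherry against NC) and 9 lower (FGF23 against mCherry) were found, and Krt5 differed by 3.72 and -2.14, Krt19 by 3.35 and -2.39. Without library 3 of both groups the counts were again 9 and 9, with Krt5 at 2.28 and -2.61 and Krt19 at 2.17 and -2.97. For the FGF23 group against NC the covariate changed the picture: 7 members were then called higher, with Krt5 at 2.57 ± 0.53 SE (adjusted p 0.00345), Krt19 at 1.5 ± 0.23 (adjusted p 0.000536), Krt18 at 1.37 ± 0.16 (adjusted p 9.5e-05) and Krt7 at 0.47 ± 0.12 (adjusted p 0.0122) added to Krt8, Krt20 and Krt23. Without library 3 of both groups 2 remained called in that comparison (Krt8 at 1.00 and Krt20 at 5.74), and Krt5, Krt14 and Krt19 were at -0.34, -0.10 and -0.81. Both analyses were added after the data were seen.

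Most basal markers other than keratins had the same direction as Krt5 and Krt14. Of 9 tested in the mCherry group against NC, 7 were higher and 0 lower (27.2% and 26.0% of all genes), with a median of 2.17. Col17a1 (0 to 0.454 CPM in NC) and Lypd3 (0 to 0.726 CPM in NC) are among the 7. Both passed the filter on low counts in the first 2 comparisons only through the mCherry libraries, in which they are high. Sfn, a 14-3-3 protein of squamous epithelium, was at 4.34 to 9.95 CPM in NC, 116 to 200.3 in the mCherry group and 21.4 to 62.9 in the FGF23 group (log2 4.54 ± 0.29 SE, -2.0 ± 0.31 and 2.53 ± 0.33 in the order of comparisons above, adjusted p 6.61e-07, 0.0027 and 0.000159). Itgb4, the hemidesmosome integrin, was at 2.12 ± 0.20 and -1.74 ± 0.21 in the first 2 comparisons (adjusted p 8.65e-06 and 0.000859). In the FGF23 group against the mCherry group, 6 of 10 were lower and 1, the laminin chain Lama3, was higher (1.70 ± 0.26, adjusted p 0.00249), where 11.4% of all genes were lower and 11.7% higher. Trp63, the transcription factor that defines basal cells, was at 1.18 to 2.52 CPM in NC, 1.57 to 6.84 in the mCherry group and 1.24 to 3.27 in the FGF23 group, with overlapping groups and no call (0.83 ± 0.46, adjusted p 0.152, for mCherry against NC). Whether basal cell number had a part in the Krt5 and Krt14 differences was not tested.

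Cornified envelope genes, which encode proteins crosslinked under the membrane of squamous cells, followed the same direction. Of 10 tested, 9 were higher and 0 lower in the mCherry group against NC (27.2% and 26.0% of all genes). In the FGF23 group against the mCherry group 8 of 10 were lower and 0 higher (11.4% and 11.7% of all genes). The medians were 2.68 and -3.39. Sprr2f and Sprr2h, both among the 9, were listed at 0 in every NC library. Sprr2g and Sprr2a3, also among the 9, were as low as 0 and 0.0162 CPM in NC. All of these passed the filter on low counts in the first comparison only through the mCherry libraries, in which they are high. Sprr2a3 and Ivl, as low as 0.0260 and 0.0771 CPM in the FGF23 group, did so in the second, where both were called lower. Sprr2g was at 0 to 0.367 CPM in NC, 24.1 to 48.9 in the mCherry group and 0.886 to 4.32 in the FGF23 group (8.28 ± 0.65 SE and -3.97 ± 0.47, adjusted p 2.84e-06 and 0.000796). Sprr1a differed in pattern: it was 3.47 ± 0.59 higher in log2 in the mCherry group than in NC (adjusted p 0.000593), 3.20 ± 0.57 higher in the FGF23 group than in NC (adjusted p 0.00108), and at -0.26 ± 0.14 between the injured groups (adjusted p 0.214). Sprr2 genes are close copies of each other, so values of single copies are uncertain.

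Markers of the collecting duct, whose cells make keratins, went both ways. Of 10 collecting duct markers, 3 were higher and 3 lower in the mCherry group against NC (27.2% and 26.0% of all genes tested), 1 higher and 2 lower in the FGF23 group against the mCherry group (11.7% and 11.4% of all genes), and 0 higher and 2 lower in the FGF23 group against NC (21.7% and 20.6% of all genes). Elf5, an Ets factor of principal cells, had the direction of the keratins (log2 1.51 ± 0.50 SE for mCherry against NC and -1.61 ± 0.41 for FGF23 against mCherry, adjusted p 0.0275 and 0.0202). So did Fxyd4, a regulator of the sodium pump (1.10 ± 0.35 and -1.44 ± 0.30, adjusted p 0.0213 and 0.00925). The water channel Aqp3 and the sodium channel subunit Scnn1g were lower in the mCherry group than in NC (-1.28 ± 0.13 and -0.55 ± 0.11, adjusted p 1.95e-05 and 0.00136). Aqp2, the principal cell water channel, averaged 194 ± 61.0 CPM (SD, n = 4) in NC, 314 ± 178.6 in the mCherry group and 159 ± 42.7 in the FGF23 group, with no call. Of 5 parietal epithelial markers, 4, 0 and 3 were higher and 0, 3 and 0 lower in the 3 comparisons. Over all genes, 27.2%, 11.7% and 21.7% were higher and 26.0%, 11.4% and 20.6% lower. Cldn1, a tight junction protein of those cells, was at 2.54 ± 0.17 SE, -1.37 ± 0.17 and 1.16 ± 0.16 (adjusted p 9.16e-07, 0.000859 and 0.000255). Between the injured groups Ncam1 (-1.11 ± 0.21, adjusted p 0.00663) and Cd24a (-1.05 ± 0.29, adjusted p 0.0264) were also lower. Pax2 and Pax8 had no call there (0.16 ± 0.15 and 0.11 ± 0.08, adjusted p 0.449 and 0.34), and Pax2 had none in any comparison. Of the 4 mesothelial markers tested, 1 was higher and 1 lower in each comparison. In both comparisons with NC this is near the shares over all genes (27.2% and 26.0%, 21.7% and 20.6%), and between the injured groups those shares were 11.7% and 11.4%. Msln, mesothelin, had the direction of the keratins: it averaged 0.688 ± 0.386 CPM (SD, n = 4) in NC, 9.6 ± 5.16 in the mCherry group and 1.39 ± 0.446 in the FGF23 group (log2 3.80 ± 0.51 SE and -2.81 ± 0.40 in the first 2 comparisons, adjusted p 0.000116 and 0.00173). Gpm6a went the other way (-2.46 ± 0.16 and 1.17 ± 0.17, adjusted p 8.66e-07 and 0.00173), and the defining markers Lrrn4 and Muc16 were listed at 0 in NC and averaged at most 0.170 CPM in the mCherry group. The part of these cell types in the keratin differences was not tested.

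Genes of the structures that keratins attach to had smaller differences, with medians of 0.71, -0.47 and 0.20 over the desmosome genes in the 3 comparisons. Of 9 desmosome genes, 6 were higher and 1 lower in the mCherry group against NC, 0 higher and 4 lower in the FGF23 group against the mCherry group, and 3 higher and 1 lower in the FGF23 group against NC. Over all genes the shares higher and lower were 27.2% and 26.0%, 11.7% and 11.4%, and 21.7% and 20.6%, and the last desmosome counts are close to theirs. Dsp, desmoplakin, which anchors keratin at desmosomes, averaged 28.0 ± 3.43 CPM (SD, n = 4) in NC, 73.9 ± 11.8 in the mCherry group and 43.8 ± 11.1 in the FGF23 group (log2 1.4 ± 0.13 SE and -0.77 ± 0.19 in the first 2 comparisons, adjusted p 1.04e-05 and 0.0179). Pkp3, a desmosomal plakophilin, was at 0.95 ± 0.13 and -0.75 ± 0.13 (adjusted p 0.00011 and 0.00489). Of 8 plakins and linkers, 4 were higher and 3 lower in the mCherry group against NC (27.2% and 26.0% of all genes). Plec, plectin, averaged 51.6 ± 7.92 CPM in NC, 205 ± 34.8 in the mCherry group and 119 ± 18.5 in the FGF23 group. Evpl, envoplakin, was lower in the mCherry group than in NC (-1.26 ± 0.19 SE, adjusted p 0.000243).

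By a measure of likeness, the mean absolute difference between 2 genes' centred log2(CPM + 1) over the 12 libraries, the nearest of 11037 genes to each member were found. Those nearest to Krt20 were Lcn2 (0.46), the injury marker NGAL, and the fibrinogen chains Fgg (0.61) and Fgb (0.69). Krt18 was nearest to Oit1 (0.20) and Nupr1 (0.23), a stress-induced nuclear protein, and Oit1 was also the nearest to Krt5 (0.57) and Krt19 (0.51). Krt8 was nearest to the immediate early gene Ier2 (0.16), the G-protein regulator Rgs2 (0.16) and the integrin Itga3 (0.18). Krt7 was nearest to Hoxb6 (0.09). The constant added compresses low values, and the nearest genes of Krt14, Krt17 and Krt23 are not named for that reason. The limit applies also to Oit1, which averaged 5.32 CPM over the 12 libraries, and to the NC values of Krt5, Krt19 and Krt20, so distances given for these are compressed too.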

How the data were processed

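Whole-kidney poly(A) RNA was sequenced as strand-marked (dUTP) read pairs of 150 bases, per the labels' protocols. Build GRCm39 and the tools fastp, StringTie and edgeR come from the submitters' processing notes. Tool versions, aligner and annotation are, for this series, not given in the sources used here. For each gene and library the authors deposited a count and an FPKM value, per the file headers. A supplied name table gave symbols to 31942 of 32047 gene identifiers.

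Each comparison was fitted on its 8 libraries by the quasi-likelihood test of edgeR 4.0.16 in R 4.3.3, after filterByExpr and TMM scaling, and p-values were adjusted over all genes tested (Benjamini-Hochberg, threshold 0.05). The test was tested on simulated data. Ratios used log2 of (count + 3) and exact two-sided permutation tests over 70 assignments. Counts of 4 occurred 11995 times, against 5847 for 3 and 3638 for 5, so counts are not taken as independent molecules, and the nominal floor of 3 counts covers counting error at most. Gene lists numbered 13, with 116 of 120 genes found. The named genes were the 10 members, the members of the umbrella, basal, cornified envelope and transcription factor lists, up to 2 genes with the largest passing changes per direction from other lists, and other keratins reaching 1 CPM. Aqp2, Lrrn4, Muc16, Lrp2, Umod, Pax2 and Pax8 were named as cell type checks outside that rule. The members and lists were chosen with earlier results of these data known. Alternatives were RLE factors, library totals alone, other filters, DESeq2 1.42.0, 1 fit over all 12 libraries, a block for the replicate number, a minimum log2 change of 1, and omission of each library. Promoters are from RefSeq, build GRCm38.p6, and no coordinates were joined to the counts. Protein sequences and coordinates on GRCm39 were not analysed here.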

Additional observations from a re-analysis of the deposited data

Results flagged for a closer look

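Single libraries stood far from the other 3 of their group in 4 of the 30 groups of CPM values tested (10 genes in 3 groups, a gap beyond the 95% critical value of Dixon's test). Chance gives about 1 in 20. Krt19 was 138 CPM in mCherry library 3, against 53.8 to 59.8 CPM in the others. Krt23 was 14.0 CPM in mCherry library 3, against 5.42 to 5.75 CPM in the others. Krt5 was 12.9 CPM in FGF23 library 3, against 5.73 to 6.58 CPM in the others. In each of these the library was also the one with the highest uroplakin level of its group (4.47 and 3.10). Krt17 was 0.0647 CPM, or 4 counts, in NC library 3 and listed at 0 in the other 3. With those at 0 the gap equals the range whatever the value in library 3, so this flag carries no weight.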

How the results depend on the processing

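The counts of members called for the mCherry group against NC (9 higher) and the FGF23 group against the mCherry group (9 lower) stayed within 7 to 9 and 8 to 9 under every alternative, DESeq2 included, and the 7 came with a minimum mean of 5 CPM, which left fewer members to test. For the FGF23 group against NC, where 3 were higher, library totals alone gave 5, the uroplakin covariate 7, and leaving out single libraries 2 to 4. Library totals alone moved the median log2 change of all genes to 0.121, 0.212 and 0.344 and the calls over all genes to 5828 higher and 3958 lower, 4060 and 1035, and 7829 and 2096. Krt80 changed sign against NC in the mCherry group under the replicate block (-0.08), the covariate (-0.08), without library 3 of both groups (-0.32) and without mCherry library 3 (-0.33). In the FGF23 group against the mCherry group it did so under the covariate (0.11), without library 3 of both groups (0.17) and without mCherry library 3 (0.11), and against NC with library totals alone (0.10). In the FGF23 group against NC, leaving out library 3 of both groups turned Krt5 (-0.34), Krt14 (-0.10) and Krt19 (-0.81), and leaving out single libraries took Krt5 to 0.00, Krt14 to -0.37 and -0.18, and Krt19 to -0.44, -0.22 and -0.04. Leaving out single libraries gave ranges of -0.33 to 0.20 and -0.43 to 0.11 for Krt80 in the first 2 comparisons, and of 0.00 to 1.06 for Krt5, -0.37 to 1.4 for Krt14 and -0.44 to 0.54 for Krt19 in the FGF23 group against NC. The cause was not tested.

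Single libraries were also left out of the ratio tests. Without FGF23 library 5, 5 of the tests that involve the FGF23 group came to an adjusted p of 0.0476. Krt7 over Krt8 then no longer overlapped between the FGF23 and mCherry groups. The adjustment over all 15 tests gives 1 value to all tests at the smallest p, and that value falls as more tests reach it. The lower adjusted p is therefore no sign of larger differences in the other tests. The ranges were -1.05 to -0.80 for Krt18 over Krt8 (FGF23 against mCherry), 0.16 to 0.36 for Krt7 over Krt8 (FGF23 against mCherry), -0.97 to -0.77 for Krt7 over Krt8 (FGF23 against NC), 5.48 to 6.98 for Krt20 over Krt18 (FGF23 against NC), -3.30 to -2.48 for Krt14 over Krt5 (FGF23 against mCherry) and -0.36 to 0.40 for Krt19 over Krt18 (mCherry against NC), negative without NC library 3.

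The main fits did not pair libraries by replicate number, and whether the numbers mark pairs was not settled. Same-numbered libraries had correlated deviations of -0.39 to 0.10 between the mCherry group and NC, 0.08 to 0.23 between the FGF23 and mCherry groups and -0.23 to -0.10 between the FGF23 group and NC, over 11566 genes. With the replicate number as a block, calls over all genes went from 5088 higher and 4859 lower to 4370 and 4250, from 2199 and 2148 to 984 and 803, and from 4123 and 3912 to 2388 and 2335. The FGF23 libraries are numbered 1, 2, 3 and 5, so in both FGF23 comparisons libraries 4 and 5 had no partner. Only libraries 1, 2 and 3 of each group then bore on the blocked difference, and calls lost there cannot be read as an effect of pairing. Of the members, 9 were higher, 8 lower and 2 higher with the block in the 3 comparisons: Krt20 lost its call between the injured groups (-1.82, adjusted p 0.0523) and Krt23 that against NC (0.57, adjusted p 0.233), and the block changed no other member's call.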

Other observations

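Filament genes outside the keratin family and transcription factors known from keratin-expressing epithelia were mostly higher in both injured groups than in NC. Of 11 other intermediate filament genes, 8 were higher and 0 lower in the mCherry group against NC, 9 higher and 0 lower in the FGF23 group against NC, and 0 higher and 2 lower between the injured groups. The shares over all genes, higher and lower, were 27.2% and 26.0%, 21.7% and 20.6%, and 11.7% and 11.4%, and the counts between the injured groups are near theirs. Nefm, a neurofilament protein, averaged 0.434 ± 0.256 CPM (SD, n = 4) in NC, 2.46 ± 0.972 in the mCherry group and 2.18 ± 0.528 in the FGF23 group, and the difference between the injured groups missed the threshold (-0.20 ± 0.32 SE, adjusted p 0.685). Lmna, lamin A/C of the nuclear lamina, averaged 52.8 ± 2.77, 232 ± 33.9 and 167 ± 24.8 CPM and was lower in the FGF23 group than in the mCherry group (-0.49 ± 0.14, adjusted p 0.0296).

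Of 16 transcription factors of epithelial keratin genes, 13 were higher and 0 lower in the mCherry group against NC, 11 higher and 0 lower in the FGF23 group against NC, and 0 higher and 6 lower between the injured groups. The shares over all genes, higher and lower, were 27.2% and 26.0%, 21.7% and 20.6%, and 11.7% and 11.4%. Sox9, a factor of ducts and of regenerating tubules, was at 0.383 to 0.744 CPM in NC, 31.5 to 42.7 in the mCherry group and 5.69 to 19.7 in the FGF23 group (-1.42 ± 0.31 SE between the injured groups, adjusted p 0.0106). Klf6, a zinc finger factor of the early injury response, was at 21.4 to 30.8, 208 to 229.7 and 87.5 to 160.0 CPM (-0.79 ± 0.16, adjusted p 0.00794). Elf3, an epithelial Ets factor, was at 13.6 to 18.8, 60.1 to 118 and 21.2 to 53.2 CPM (-1.20 ± 0.28, adjusted p 0.0155). Klf5, a factor of proliferating epithelium, was at 0.307 to 3.54, 13.1 to 21.7 and 9.15 to 13.3 CPM, with no call between the injured groups (-0.54 ± 0.19, adjusted p 0.0651). Stat3 (-0.25 ± 0.15, adjusted p 0.253) and Cebpb (-0.34 ± 0.16, adjusted p 0.147) had no call there either. Fosl1, a Fos factor, was listed at 0 in NC and at 20.6 to 34.5 and 27.9 to 36.7 CPM in the injured groups. It is among the 13 and the 11, and entered both comparisons with NC only through the injured group, in which it is high. Fosl1 alone of the list had a positive difference between the injured groups, without a call (0.37 ± 0.16, adjusted p 0.132). Whether these factors bear on the keratin genes was not tested.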
